A study of Mus musculus with 6 samples.

Results

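The cytosolic ribosomal protein genes encode the proteins that, with the ribosomal RNAs, build the large and the small subunit of the ribosome. They were taken as every row of the deposited table whose gene symbol begins with Rpl or Rps followed by a digit, together with Rplp0, Rplp1, Rplp2 and Rpsa, leaving out the S6 kinases and rows named as pseudogenes with the ending -ps. This gave 89 of the 23345 genes, 52 with large subunit names and 37 with small subunit names. The names were read as such, without regard to expression, but the set was chosen with earlier results of these data known. By the GENCODE M21 annotation of GRCm38, 84 of them are protein coding and 5, Rpl32l, Rpl37rt, Rps3a2, Rps3a3 and Rps4l, are annotated as pseudogenes. Rps19bp1 carries a matching name but encodes a nucleolar partner of the small subunit protein Rps19 and not a ribosomal protein. The members lie on 19 chromosomes, 14 of them on chromosome 7.

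A ribosome holds a single copy of nearly every ribosomal protein, and cells keep the messages of these proteins in step with each other. Most of these messages start with a run of pyrimidines, called a terminal oligopyrimidine tract, through which the growth-sensing kinase mTORC1 and the RNA-binding protein Larp1 govern their translation and stability. Their transcripts are short, abundant and copied into many processed pseudogenes, which makes their reads harder to place than those of most genes. In endothelial cells, as elsewhere, the demand for new ribosomes goes with growth and protein output.

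The samples were lung endothelial cells of C57BL/6JOlaHsd mice fed a high-fat diet (HFD, mice 2, 4 and 5) or a normal diet (ND, mice 1, 3 and 4), for 3 months by the sample labels and for 12 weeks by the description of the series. The sources used here give neither the sex or age of the animals nor the make-up of either diet. Lung digests were plated, depleted of cells bearing the leukocyte Fc receptors CD16/CD32, enriched on beads for the endothelial adhesion protein ICAM-2 and plated again before RNA was taken, so all libraries come from cells that had been attached to coated plates. Each library was made from 500 cells by oligo(dT) priming, template switching and PCR.

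Depth was 18.8, 22.2 and 27.9 M reads for mice 2, 4 and 5 on HFD, against 17.2, 14.5 and 13.8 M for mice 1, 3 and 4 on ND. Every HFD library was deeper than every ND library, so diet and depth cannot be told apart. All 12 endothelial markers looked at were detected, with summed normalized counts of 175923 to 210619 in HFD and 136657 to 174754 in ND. Among the markers of other cells, the epithelial list stood at 4814 to 18864 in HFD and at 4443 to 103701 in ND, the top value being that of ND 3, in which the alveolar surfactant gene Sftpc alone had 70918. The summed mural cell markers were 602 to 1242 in HFD and 1022 to 5709 in ND, the fibroblast markers 339 to 3513 and 378 to 5989, and the lymphatic endothelial markers 4853 to 15891 and 14841 to 33512. The macrophage markers, of which 8 of 11 were in the table, summed to 261 to 775 in HFD and 527 to 6558 in ND, and the 5 lymphocyte markers in the table to 16.5 to 33 and 20.2 to 60.2. Erythroid and platelet markers stood at 515 to 5628 in HFD and 858 to 1468 in ND, and cycling genes at 2382 to 3215 and 1012 to 2656. In none of these lists was a marker present in the table at 0 in all libraries. Their part in the results on ribosomal protein genes was not tested, beyond the values without ND 3 given below.

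To show where the messages of the members begin, the 30 bases before and 25 bases from the annotated start on were read from the RefSeq promoter table of GRCm38.p6 for the 64 tested members that it held. The windows printed here belong to members described below, and capitals mark the longest run of C and T that reaches within 20 bases of the start. All 8 printed first have a run of at least 7 bases, and they do not stand for all members described. Rpl10, Rpl22, Rpl41, Rps19 and Rps4x, also described below, had no run of that length.
Rpl12, chr2:32961682-32961736, plus strand: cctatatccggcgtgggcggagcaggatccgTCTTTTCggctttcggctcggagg
Rps12, chr10:23787185-23787239, minus strand: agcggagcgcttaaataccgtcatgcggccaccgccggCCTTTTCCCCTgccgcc
Rplp2, chr7:141447621-141447675, plus strand: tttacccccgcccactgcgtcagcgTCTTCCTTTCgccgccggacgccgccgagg
Rps10, chr17:27635220-27635274, minus strand: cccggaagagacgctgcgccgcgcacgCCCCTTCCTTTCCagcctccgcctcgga
Rps27, chr3:90213624-90213678, minus strand: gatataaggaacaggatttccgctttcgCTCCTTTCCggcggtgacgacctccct
Rps6, chr4:86857343-86857397, minus strand: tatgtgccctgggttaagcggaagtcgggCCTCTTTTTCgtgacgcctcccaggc
Rpl13a, chr7:45128721-45128775, minus strand: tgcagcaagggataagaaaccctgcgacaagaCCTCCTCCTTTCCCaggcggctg
Rpl4, chr9:64173357-64173411, plus strand: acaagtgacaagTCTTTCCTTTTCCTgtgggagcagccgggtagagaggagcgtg

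The next 3 windows had no run of that length within 20 bases of their annotated start, and are shown because these genes were among the 9 members that were higher in HFD. Members without such a run were not all higher: Rpl24, Rpl35a and Rpl37a, all lower in HFD, also had none of that length, and Rpl7a, with an estimate above 0, had a run of 21 bases.
Rpl7l1, chr17:46782632-46782686, minus strand: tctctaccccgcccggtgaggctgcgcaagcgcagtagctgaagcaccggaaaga
Rps3, chr7:99483685-99483739, minus strand: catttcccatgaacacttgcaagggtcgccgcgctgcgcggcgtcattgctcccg
Rps19bp1, chr15:80264282-80264336, minus strand: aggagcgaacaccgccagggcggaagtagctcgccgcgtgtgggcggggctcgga

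Over all 64 members in the promoter table, a C at the start base followed by at least 4 bases that are each C or T was found in 13 (20.3%), against 2.51% of all 27025 promoters and 2.21% of the 10632 promoters of other tested genes. An annotated start can lie a few bases from the base at which a message begins, as for Rpl12, where the run begins 1 base after it. Allowing the C to lie within 5 bases of the start, a rule added after the starts had been seen, the share was 45.3% of members and 18.4% of all promoters. A run of at least 8 C or T within 20 bases of the start was found in 45.3% of the members and 20.9% of all promoters. CCGGAAG, on either strand, was in 37.5% of the member windows of 250 bases before to 50 bases after the start, against 9.17% of all promoters and 17.6% of those of other tested genes. AAGATGG, on either strand, was in 14.1% against 6.46%, and TATAAA within 50 bases before the start was in 1 member (1.56%), Rpl22l1, against 2.9% of all promoters and 1.37% of those of other tested genes. These are matches of letters in a window and not measured start sites. The 13 members with a C and pyrimidines at the annotated start had a median log2 fold change of -0.43 (HFD minus ND), and the other 51 one of -0.37. By the rule of at least 8 C or T the order was the other way, with -0.35 in the 29 members with a run and -0.38 in the 35 without.

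The ribosomal protein genes made up a smaller share of the libraries from HFD mice than of those from ND mice. They held 2.30%, 2.20% and 1.68% of all normalized counts in HFD 2, HFD 4 and HFD 5, and 2.99%, 2.55% and 2.64% in ND 1, ND 3 and ND 4. The mean share was 2.06% ± 0.33 in HFD and 2.73% ± 0.23 in ND (SD, n = 3 each), and the diets did not overlap. Large subunit genes held 1.27%, 1.22% and 0.960% in HFD and 1.64%, 1.40% and 1.44% in ND. Small subunit genes held 1.02%, 0.985% and 0.723% in HFD and 1.35%, 1.15% and 1.19% in ND. Both subunits thus had their lowest share in HFD 5 and their highest in ND 1. In bulk RNA of this kind, fewer cells of a type and less of these messages per cell cannot be told apart, and a share also moves with all other messages in the library. Rows named with -ps, 85 in number, held 0.594%, 0.559% and 0.550% of the member sum in HFD and 0.541%, 0.712% and 0.623% in ND, values that overlapped.

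**Figure D1:**
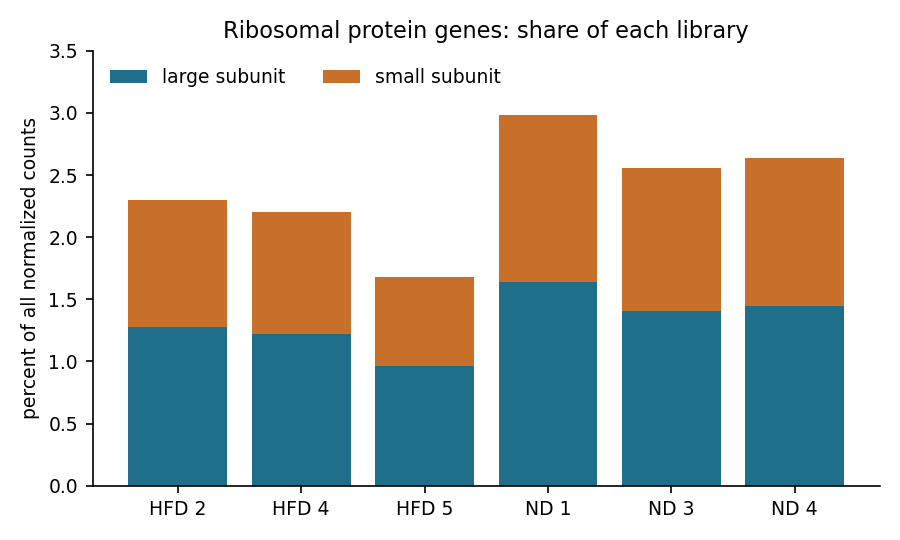
Share of all normalized counts of each library held by ribosomal protein genes, with large and small subunit genes stacked and the 3 HFD libraries left of the 3 ND libraries. The HFD bars reach 1.68% to 2.30% and the ND bars 2.55% to 2.99%.

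Fold changes below are differences of log2(normalized count + 1), HFD minus ND, from the limma fit across the 15655 genes that averaged 10 normalized counts or more, with Benjamini-Hochberg adjustment at 0.05 over all of them. Of the members, 85 passed that filter, 50 of the large and 35 of the small subunit. The other 4, Rpl3l, Rpl32l, Rps3a2 and Rps3a3, were at 0 to 10.6 normalized counts in every library and were not tested. No member passed the threshold, and neither did any other gene (0% of 15655). The smallest adjusted p was 0.574 among members, for Rpl12, and 0.276 among all genes. At an unadjusted p below 0.05, 8 members were lower in HFD and 0 higher, where 2.36% of all tested genes were lower and 5.56% higher. Run on the recovered reads, edgeR's quasi-likelihood test called 0 members and DESeq2 called 0, and each gave an unadjusted p below 0.05 to 14 members, where 3.93% and 4.57% of all genes were lower at that level. DESeq2 called 276 of 13150 genes (2.1%), with 0.798% of all genes called as lower.

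Although no member passed alone, nearly all stood on the same side. In HFD 76 of the 85 tested members (89.4%) were lower than in ND, against 47.2% of all tested genes and 39.4% of the 3535 genes averaging 1000 normalized counts or more, a level that 79 members reached. For 24 members (28.2%) the HFD libraries all lay below the ND libraries, which was so for 5.93% of all tested genes and 5.01% of those at that level. For 0 members they all lay above, which was so for 8.12% of all tested genes and 13.4% of those at that level. The members share the same 6 libraries, so these counts are not counts of independent events.

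The median log2 fold change of the 85 members was -0.38, a linear ratio of 0.767, against a median of 0.05 over all tested genes. The quartiles were -0.49 and -0.23, the extremes -0.84 and 0.78, and 68 of the 85 lay within 0.3 of the median. The members were therefore close together on the log2 scale. Their median SE, which measures spread between libraries and not between genes, was 0.27, against 0.75 for all tested genes. Of all 15655 tested genes 3535 averaged 1000 normalized counts or more, and of the 85 members 79 did. The median member level, on the log2 scale, was 11.91, 11.82 and 11.60 in HFD and 12.48, 11.95 and 11.97 in ND. Its mean was 11.78 ± 0.16 in HFD and 12.14 ± 0.30 in ND (SD, n = 3 each).

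**Figure D2:**
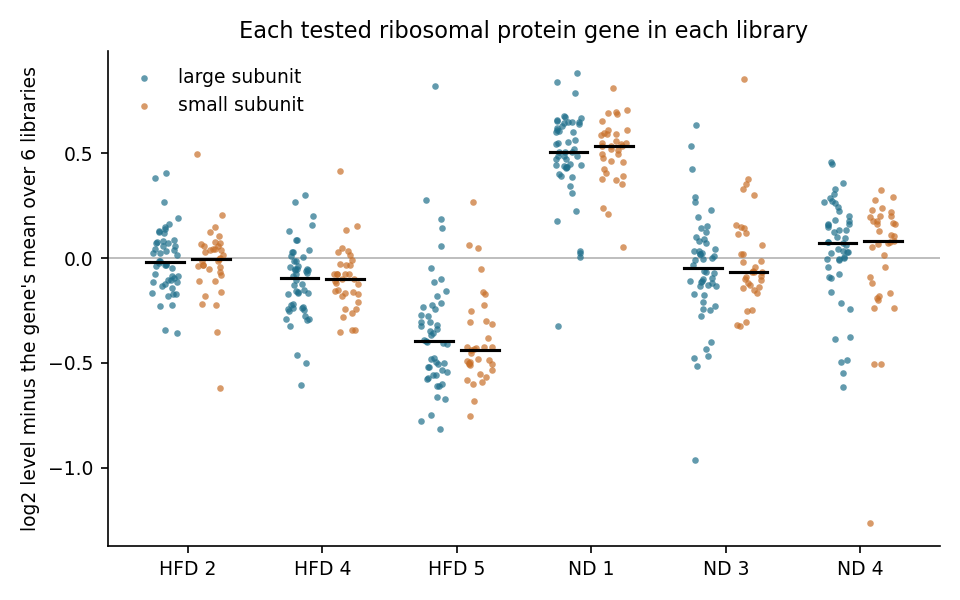
Log2 level of each tested ribosomal protein gene in each library, minus that gene's mean over the 6 libraries; points are genes, bars the medians of the large and the small subunit. The points of ND 1 lie above and those of HFD 5 below those of the other libraries for most genes.

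A single library on each side stood at the end of the range for most members. ND 1 was the highest library for 75 of the 85 members, and HFD 5, the deepest library, the lowest for 60. Without ND 1, 61 of 85 members were lower in HFD (all genes 46.9%), with a median of -0.19, and 26 lay below ND without overlap (all genes 11.8%) and 5 above. Without HFD 5, 74 were lower (all genes 47.6%), with a median of -0.25, and 24 lay below without overlap (all genes 9.81%). Without ND 3, the library with the high epithelial markers, 78 were lower (all genes 48.4%), with a median of -0.51, and 49 lay below without overlap (all genes 11.6%) and 1 above. The median thus kept its sign without any of these 3 libraries, and it was nearer to 0 without ND 1 or HFD 5 and farther from 0 without ND 3. The share of all genes lying above ND in these fits was not computed, so the 5 and the 1 above have no comparison. Without HFD 2, HFD 4 or ND 4 the members lower in HFD numbered 77, 77 and 81 (all genes 46%, 46.1% and 47.4%), and 46, 26 and 27 lay below without overlap (all genes 10.6%, 10.3% and 10.1%). With every column brought to the same total, 78 were lower (all genes 53.1%), and 48 lay below without overlap and 0 above (all genes 7.65% and 6.47%). The 15 mitochondrially encoded genes had the same extreme libraries, with summed normalized counts of 513931, 494119 and 363040 in HFD and 719341, 502740 and 432636 in ND. Their part in the result was not tested.

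The large and the small subunit stood close to each other. Of 50 large subunit genes 44 were lower in HFD (all tested genes 47.2%) and 14 lay below ND without overlap (all tested genes 5.93%), with a median log2 fold change of -0.35. Of 35 small subunit genes 32 were lower and 10 lay below ND without overlap, with a median of -0.39. The sum of large subunit counts over that of small subunit counts was 1.24, 1.24 and 1.33 in HFD and 1.22, 1.22 and 1.21 in ND, so the ratio was higher in each HFD library. Its mean was 1.27 ± 0.050 in HFD and 1.22 ± 0.0049 in ND (SD, n = 3 each). The ratio was also computed without Rpl3, Rpl4 and Rplp0, the members of more than 900 coding bases. These were left out after their values were seen, and all have estimates above 0, so that the HFD ratio without them is lower by construction. It was 1.09, 1.08 and 1.12 in HFD and 1.10, 1.09 and 1.11 in ND, and the diets overlapped. Without Rps19bp1 and paralogs the ratio was 1.29, 1.27 and 1.36 in HFD and 1.25, 1.25 and 1.25 in ND, and the diets did not overlap.

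**Figure D3:**
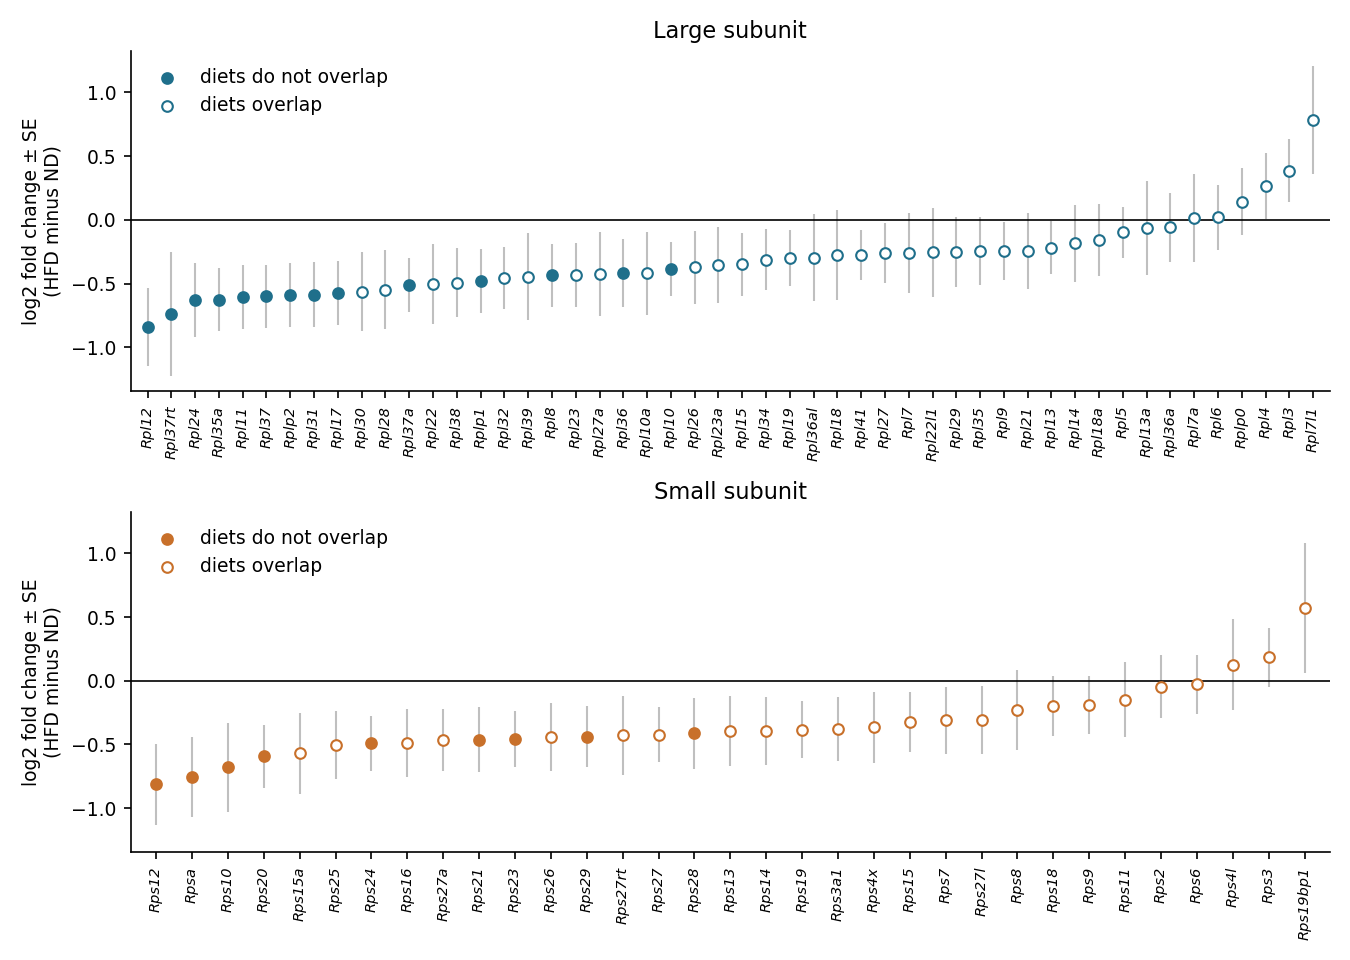
Log2 fold change with its SE for tested ribosomal protein genes, large subunit above and small subunit below, in order of size; filled points are genes whose 3 HFD and 3 ND libraries do not overlap. All filled points lie below 0, and the genes above 0 number 9.

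Among the large subunit proteins at the factor-binding side of the ribosome, Rpl12 sits at the base of the stalk that recruits elongation factors. Rpl12 (ENSMUSG00000038900, chr2:32961559-32965345, plus strand, 7 exons in the annotated transcript used) had 914, 1051 and 697 normalized counts in HFD 2, HFD 4 and HFD 5 and 1536, 1817 and 1386 in ND 1, ND 3 and ND 4. All HFD values were below all ND values, with a log2 fold change of -0.84 ± 0.31 (SE), the lowest of all members, and an unadjusted p of 0.0282 that was 0.574 after adjustment in limma. Rplp1 and Rplp2 are the acidic proteins that form the stalk. Rplp2 had 2343, 2034 and 1774 normalized counts in HFD and 3375, 3353 and 2548 in ND (-0.59 ± 0.25), and Rplp1 had 5560, 5434 and 3736 in HFD and 8377, 6129 and 5967 in ND (-0.48 ± 0.25). Rplp0 anchors those proteins on the ribosome and is often used as a housekeeping gene. It had 7314, 9527 and 10322 normalized counts in HFD and 10834, 8154 and 6057 in ND, with a log2 fold change of 0.14 ± 0.26, so its diets overlapped and its estimate had the other sign.

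Rpl5 and Rpl11 bind the 5S ribosomal RNA and, when free of the ribosome, the p53 regulator Mdm2. Rpl11 had 3566, 2998 and 2643 normalized counts in HFD and 5723, 3734 and 4636 in ND (-0.60 ± 0.25), without overlap. Rpl5 had 5042, 4262 and 3823 in HFD and 4602, 4757 and 4612 in ND (-0.10 ± 0.20), with overlap. The difference between these partners was not tested. Rpl10, which joins the large subunit late in its assembly, had 4669, 4296 and 4379 normalized counts in HFD and 7211, 5213 and 5238 in ND (-0.39 ± 0.21), without overlap.

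Other large subunit genes of small unadjusted p were Rpl35a, mutated in some patients with Diamond-Blackfan anaemia, and the zinc-binding proteins Rpl37 and Rpl37a. Rpl35a had 2813, 2471 and 2001 normalized counts in HFD and 4362, 3256 and 3615 in ND (-0.63 ± 0.25). Rpl37 had 4279, 4255 and 3101 in HFD and 7176, 4830 and 5691 in ND (-0.60 ± 0.25), and Rpl37a had 6594, 6354 and 5015 in HFD and 10167, 7558 and 7941 in ND (-0.51 ± 0.21). None of the 3 overlapped between diets, and their adjusted p values in limma were 0.591, 0.608 and 0.608. Rpl37rt, an annotated pseudogene with a mean of 148 ± 36 normalized counts in HFD and 244 ± 39 in ND (SD, n = 3 each), stood at -0.74 ± 0.49.

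In the small subunit, Rps12 and Rpsa had the lowest estimates. Rps12, a protein of the head of the subunit (chr10:23785183-23787275, minus strand), had 1507, 1479 and 1038 normalized counts in HFD and 3079, 2241 and 1816 in ND (-0.81 ± 0.32). Rpsa, also known as the laminin receptor (chr9:120127689-120132369, plus strand), had 1102, 1466 and 1374 in HFD and 1756, 3062 and 1989 in ND (-0.76 ± 0.31). Neither gene overlapped between diets, and their adjusted p values in limma were 0.586 and 0.615. For Rpsa the highest library was ND 3 and not ND 1. Rps20 and Rps10, which are ubiquitinated when ribosomes collide, also did not overlap. Rps20 had 2416, 3009 and 2168 normalized counts in HFD and 4352, 3865 and 3223 in ND (-0.59 ± 0.25). Rps10 had 467, 429 and 398 in HFD and 802, 709 and 577 in ND (-0.68 ± 0.35). Further members without overlap, all lower in HFD, included Rpl31, Rpl17, Rps24, Rpl24, Rps23, Rps29, Rps21, Rpl8, Rpl36 and Rps28.

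Among the best known small subunit genes the estimates differed in size. Rps6, the substrate of the S6 kinases, had 6172, 5454 and 4971 normalized counts in HFD and 7285, 5008 and 4848 in ND (-0.027 ± 0.23). Rps19, the gene most often mutated in Diamond-Blackfan anaemia, had 11532, 10113 and 8348 in HFD and 16551, 10677 and 12233 in ND (-0.38 ± 0.22). Rps27a, made as a fusion with ubiquitin, had 5875, 4666 and 3955 in HFD and 8202, 5557 and 6264 in ND (-0.47 ± 0.25). All 3 overlapped between diets. Rps19 and Rps27a, where HFD 2 lay above ND 3, had estimates at or beyond the member median, and that of Rps6 was near 0. In the large subunit, Rpl13a, known in human myeloid cells for a role in translational silencing outside the ribosome, had 919, 1071 and 624 in HFD and 1175, 768 and 776 in ND (-0.063 ± 0.37).

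The 9 members with higher estimates in HFD were Rpl7l1, Rps19bp1, Rpl3, Rpl4, Rps3, Rplp0, Rps4l, Rpl6 and Rpl7a, with log2 fold changes of 0.78 down to nearly 0, and in each of them the diets overlapped. These were limma estimates. By DESeq2 and edgeR, Rpl6 (-0.073 and -0.048) and Rpl7a (-0.14 and -0.11) were below 0, and 78 members were lower. Rpl3, which reaches toward the peptidyl transferase centre, had 4862, 4883 and 4844 normalized counts in HFD and 3400, 4986 and 3038 in ND (0.39 ± 0.25). Its HFD libraries were nearly equal and 1 of the ND libraries lay above them. Rpl4, which lines the exit tunnel, had 16574, 13663 and 15204 in HFD and 18762, 9953 and 10622 in ND (0.27 ± 0.26). Rps3, at the entry of the message into the ribosome, had 8733, 9285 and 10782 in HFD and 10380, 9074 and 6319 in ND (0.18 ± 0.23). Rps19bp1 had 1007, 953 and 688 in HFD and 1020, 665 and 297 in ND (0.57 ± 0.51). Without Rps19bp1 and the paralogs described below, 73 of 79 tested members were lower in HFD and the median was -0.39.

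Levels of different genes were compared as mean normalized counts per kb of the annotated transcript. The tested members had a median of 5855, with quartiles of 3488 and 9179. The highest was the zinc-binding small subunit protein Rps27 with 51587, followed by Rps14 with 32615, Rpl41, whose protein has 25 residues, with 26641, Rpl32 with 25231 and Rps19 with 18287. The lowest tested was Rpl37rt with 666. All 5 of the highest had lower estimates in HFD with overlapping diets. Rps27 had 17570, 15557 and 12349 normalized counts in HFD and 25145, 16188 and 19976 in ND (-0.42 ± 0.22), and Rps14, on the platform of the small subunit, had 18602, 17829 and 13357 in HFD and 29626, 15212 and 22202 in ND (-0.39 ± 0.27). Rpl32 had 12340, 11221 and 9063 in HFD and 19904, 11222 and 14516 in ND (-0.46 ± 0.25). Rpl41 had 11708, 11184 and 8721 in HFD and 15047, 11489 and 11703 in ND (-0.28 ± 0.20), where HFD 2 lay above ND 3 and, by a few counts, above ND 4.

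Estimates were lower among members with shorter coding sequences. Among members of at most 300 coding bases all 11 were lower in HFD, with a median log2 fold change of -0.44. Above 300 and up to 450 bases 29 of 30 were lower (median -0.46), up to 600 bases all 19 (-0.31) and up to 900 bases 16 of 20 (-0.20). Above 900 bases 0 of 3 were lower (0.27). Members below ND without overlap numbered 5, 10, 5, 3 and 0 in these ranges (5.93% of all tested genes). Across the 83 tested members with a coding length, Spearman's rho with the log2 fold change was 0.49 and Pearson's r with log2 length 0.42. These are descriptions across genes that share the same 6 libraries. Other protein-coding genes also had their lowest medians at short lengths, with -0.16, -0.064, 0.12, 0.19 and 0.11 in the same order of length. In the first 4 ranges these lay above the member medians, and in the last below. Of other genes averaging 1000 normalized counts or more, 71.0%, 53.4%, 40.4%, 28.6% and 35.7% were lower in HFD. Their medians were -0.17, -0.030, 0.080, 0.21 and 0.18.

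**Figure D4:**
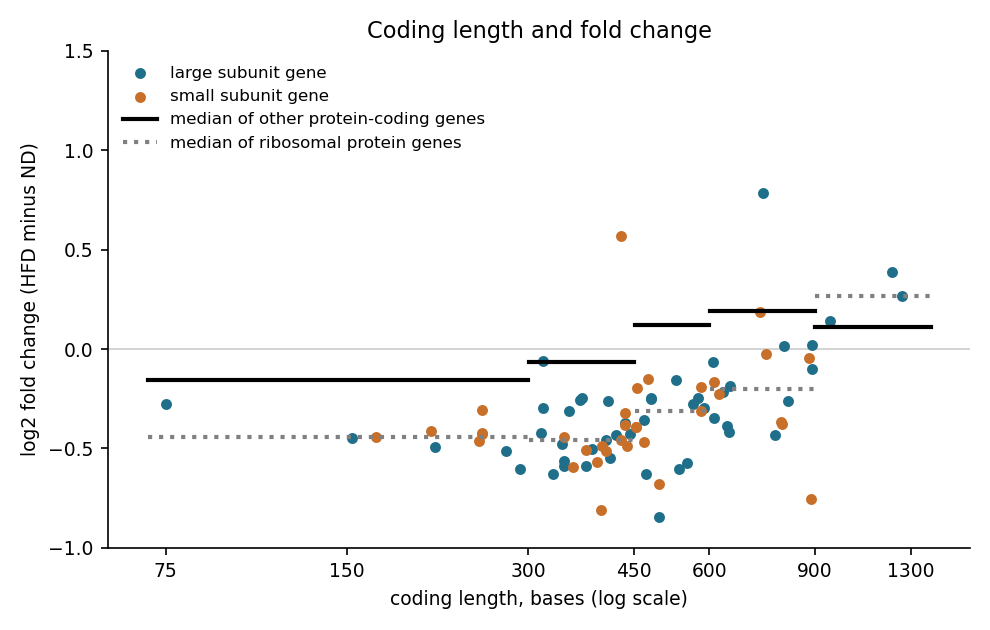
Log2 fold change of each tested member against its coding length (log axis), with the median of members (dotted) and of other protein-coding genes (solid) in 5 length ranges. The member medians lie below those of the other genes up to 900 bases, though single members such as Rpl7l1 (0.78) and Rps19bp1 (0.57) lie above, and the 3 longest, Rpl3, Rpl4 and Rplp0, lie above 0.

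Because ribosomal protein messages have many processed copies, the annotated transcripts were cut into windows of 50 bases and each was looked for in the transcripts of other genes. The median member had a copy of 55.5% of its windows elsewhere, from 0% to 98.6%. The 51 tested members with at least 50% of windows copied had a median log2 fold change of -0.37, with 48 lower in HFD and 15 below ND without overlap (all tested genes 47.2% and 5.93%). The other 34 had a median of -0.43, with 28 lower and 9 without overlap. For the 10 members with under 20% copied, the median was -0.020, with 5 lower and 3 without overlap. Among those lower were Rpl39, Rpl8, Rps20 and Rps24. Higher were Rps19bp1 (0.57), which is not a ribosomal protein, the annotated pseudogene Rps4l (0.13), the paralog Rpl7l1 (0.78), Rpl4 (0.27) and Rps3 (0.18). The median without the first 3 of these was not computed. The copied share was taken over the whole annotated transcript, and that of the coding part alone was not computed. For Rps20, Rps3 and Rps24 that transcript had 3706, 1908 and 1613 bases, of which 357, 729 and 399 were coding. A low copied share therefore does not show that reads from their coding parts match a single place. The sources used here do not say how reads matching several places were counted, so the values of the copied members are uncertain to that extent. Exons of 9 members, Rpl13a, Rpl22l1, Rpl23a, Rpl24, Rpl30, Rpl35, Rpl36al, Rpl5 and Rps10, overlap another gene by more than 25% of their length. Their counts are uncertain to that extent, and the median of the other 76 tested was -0.39. Of the members, 30 carry a small nucleolar RNA in an intron, 58 in all. Their median was -0.38, and that of the 55 tested without one also -0.38.

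Some ribosomal protein genes have a paralog, whose place in the ribosome was not measured here. For 6 such pairs the paralog's part of the pair, per kb, was computed in each library. Rps4l, read here as the paralog of Rps4x, is annotated as a pseudogene. Rpl7l1 made up 20.9%, 20.5% and 31.4% of the sum of Rpl7 and Rpl7l1 in HFD and 14.4%, 12.9% and 12.5% in ND, without overlap (24.3% ± 6.2 and 13.3% ± 0.98, SD, n = 3 each). Rpl7l1 itself had 1791, 2029 and 2979 normalized counts in HFD and 2223, 864 and 1101 in ND (0.78 ± 0.42), while Rpl7 had 6026, 6971 and 5771 in HFD and 11752, 5174 and 6835 in ND (-0.26 ± 0.31). In ND 1 both were high, so the part of the paralog there was like that of the other ND libraries. The other 5 pairs overlapped between diets. Rpl22l1 was 48.7%, 43.3% and 52.2% of its pair with Rpl22 in HFD and 47.8%, 34.7% and 49.1% in ND. Rps27l, which p53 induces, was 23.8% ± 0.40 of its pair with Rps27 in HFD and 22.4% ± 1.9 in ND, Rpl36al was 20.4% ± 3.1 of its pair with Rpl36a in HFD and 23.2% ± 3.8 in ND, and Rps4l was 16.4% ± 3.5 of its pair with the X-linked Rps4x in HFD and 12.3% ± 2.5 in ND (SD, n = 3 each). Rpl3l, the paralog of Rpl3 in striated muscle, was at 0.048% ± 0.044 of its pair in HFD and 0.050% ± 0.059 in ND. Rpl10l and Rpl39l were not analysed here.

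Fau and Rack1, proteins of the ribosome with other gene names, were read beside the members. Fau is made as a fusion of a small subunit protein with a ubiquitin-like protein, and Rack1 is a signalling scaffold on the small subunit. Fau had 4405, 4227 and 3780 normalized counts in HFD and 7014, 4638 and 4889 in ND (-0.39 ± 0.23), without overlap. Rack1 had 2928, 4135 and 3536 in HFD and 4332, 4086 and 2490 in ND (-0.014 ± 0.29), with overlap. Its estimate was near 0, and the sign turned without HFD 2 (0.11), ND 1 (0.13) or ND 3 (0.091).

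The genes that make ribosomes stood on the other side of 0. Of 71 tested ribosome biogenesis genes 53 were higher and 18 lower in HFD, with a median log2 fold change of 0.59 beside the 0.05 of all tested genes, 8 without overlap above ND and 3 below, where 8.12% and 5.93% of all tested genes did so. None passed the threshold in limma, and 6 were higher and 0 lower at an unadjusted p below 0.05, where 5.56% and 2.36% of all tested genes were. These counts were near the shares of all genes, and the list differed from them mainly in its median and in the number higher. The median was 0.34 without HFD 5, 0.41 without ND 3 and 0.42 by DESeq2. Nop2, a methyltransferase of the large ribosomal RNA, had 291, 345 and 545 normalized counts in HFD and 36.6, 3.21 and 83.2 in ND, with a log2 fold change of 4.01 ± 1.12 and an adjusted p of 0.498 in limma and 0.0436 in DESeq2. Its ND libraries were all far below its HFD libraries. Tbl3, a protein of the small subunit processome, had 443, 446 and 379 in HFD and 16.5, 180 and 5.94 in ND (3.91 ± 1.17, adjusted p 0.522 in limma). Npm1, an abundant nucleolar chaperone, had 4441, 4430 and 4280 in HFD and 6807, 4711 and 5443 in ND (-0.35 ± 0.21), lower in HFD without overlap.

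The factors of RNA polymerase I and of 5S RNA synthesis, which supply the ribosomal RNAs, had 18 of 27 tested genes higher in HFD and a median of 0.39, with 3 without overlap above ND and 1 below (all tested genes 8.12% and 5.93%). Taf1a and Taf1b are subunits of the factor that places RNA polymerase I on ribosomal DNA. Taf1a had 408, 228 and 604 normalized counts in HFD and 88.6, 52.4 and 160 in ND (2.07 ± 0.64), and Taf1b had 1107, 805 and 1401 in HFD and 671, 521 and 200 in ND (1.39 ± 0.53). Both were higher in every HFD library, with adjusted p values in limma of 0.524 and 0.581. Oligo(dT) priming reads the messages of these factors and not the ribosomal RNAs themselves, so ribosomal RNA was not measured.

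Translation factors were divided. Of 40 initiation factor genes 26 were higher and 14 lower in HFD, with a median of 0.16 that was 0.015 by DESeq2 and -0.0054 without ND 4. Without overlap, 4 of them lay below ND and 4 above (all tested genes 5.93% and 8.12%). Eif6, which keeps the large subunit from joining the small one too early, had 2724, 3504 and 4300 normalized counts in HFD and 1991, 2096 and 1137 in ND (1.04 ± 0.33). Eif2b4, of the exchange factor that reloads initiation factor eIF2, had 841, 528 and 1372 in HFD and 373, 370 and 342 in ND (1.23 ± 0.44). Neither gene overlapped between diets and neither passed the threshold, with adjusted p values in limma of 0.551 and 0.570. Eif2s3x went the other way, also without overlap. It had 890, 587 and 730 in HFD and 1551, 1640 and 1051 in ND (-0.94 ± 0.34, adjusted p 0.574 in limma). Pabpc1, the poly(A)-binding protein, was counted not in this list but in that of elongation and termination. Pabpc1 had 2261, 3319 and 3325 in HFD and 4049, 3550 and 5198 in ND (-0.53 ± 0.27), lower in HFD without overlap.

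Of 18 genes of elongation and termination 10 were higher and 8 lower, with a median of 0.34 that was 0.037 without ND 3 and 0.18 by DESeq2. Eef1a1, which brings charged tRNA, had 28726, 31246 and 30999 normalized counts in HFD and 41197, 28406 and 30421 in ND (-0.12 ± 0.17). Eef2, which moves the ribosome along, had 4591, 5590 and 5668 in HFD and 1819, 4778 and 2992 in ND (0.83 ± 0.36). Tpt1, whose message carries a pyrimidine tract like those of ribosomal proteins, had 11726, 10289 and 7737 in HFD and 17020, 13430 and 13151 in ND (-0.56 ± 0.21, unadjusted p 0.032, adjusted p 0.579 in limma), without overlap. The messages of Eef1a1, Eef2 and Pabpc1 are known to carry such tracts as well, and their estimates had different signs.

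**Figure D5:**
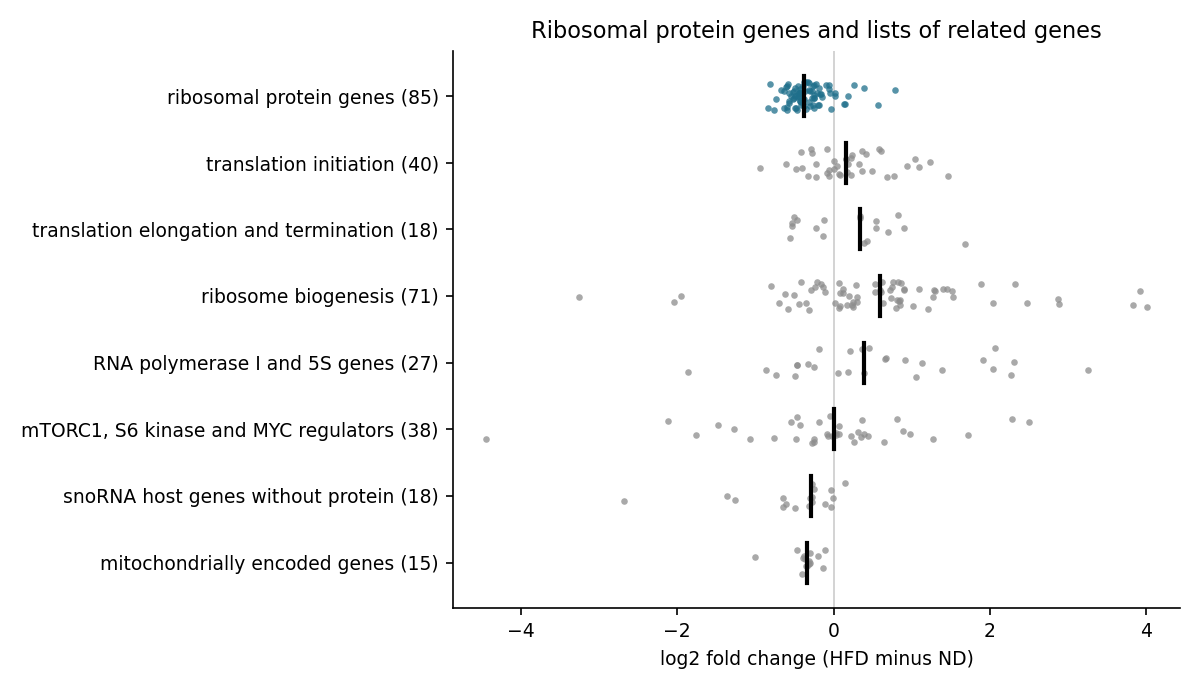
Log2 fold change of each tested gene of the ribosomal protein members and of 7 lists of related genes, with list sizes in parentheses and bars at the medians; values beyond 5 are drawn at 5. Ribosomal protein, snoRNA host and mitochondrially encoded genes have medians of -0.38, -0.29 and -0.35, and ribosome biogenesis genes one of 0.59.

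Among the regulators of the growth pathway, 19 of the 38 tested genes of mTORC1, S6 kinase and MYC were higher in HFD and 19 lower, with a median of 0.0021 that changed sign with the scaling (-0.11 with equal column totals). Myc, the transcription factor that drives ribosome making, had 2.91, 147 and 82.1 normalized counts in HFD and 280, 119 and 115 in ND (-2.11 ± 1.38). Mtor stood at -0.47 ± 0.41 and Larp1, which binds the pyrimidine tract, at -0.76 ± 0.54, both with overlap. The S6 kinase gene Rps6kb1 had 1885, 2536 and 2740 in HFD and 1046, 1754 and 1883 in ND (0.64 ± 0.33), higher in each HFD library than in any ND library, though HFD 2 and ND 4 were nearly equal. Rps6kb2 had 233, 194 and 334 in HFD and 41.3, 53.5 and 187 in ND (1.72 ± 0.72), and Lamtor1, of the complex that holds mTORC1 on lysosomes, had 1867, 1238 and 1884 in HFD and 840, 1010 and 803 in ND (0.89 ± 0.31). Eif4ebp1, the translation repressor that mTORC1 phosphorylates, stood at 0.027 ± 0.31. None of these genes passed the threshold in limma, and DESeq2 called 1 gene of the list, Rragb, at an adjusted p of 0.0321. Rragb, a GTPase that activates mTORC1, was at 0 in all HFD libraries and had 183, 0 and 54.6 normalized counts in ND, so the diets shared the value 0. Messages were measured here and not the activity of the kinases.

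The noncoding hosts of small nucleolar RNAs stood beside the ribosomal protein genes. Of 18 tested, 17 were lower in HFD (all tested genes 47.2%), with a median of -0.29. Without ND 1, 13 of the 18 were lower and the median was -0.16, and without HFD 5 these were 14 and -0.20. Only Snhg14 lay below ND without overlap, a count near the share of all tested genes (5.93%). Snhg14 had 67.0, 123 and 140 normalized counts in HFD and 217, 325 and 232 in ND (-1.26 ± 0.54). Snhg18 had 72.8, 152 and 2.16 in HFD and 301, 146 and 211 in ND (-2.68 ± 1.41). Gas5, a host whose RNA has a pyrimidine tract, had 6492, 6581 and 5684 in HFD and 7398, 5370 and 6276 in ND (-0.013 ± 0.20). All 15 mitochondrially encoded genes were lower in HFD (all tested genes 47.2%), with a median of -0.35 and 2 without overlap (all tested genes 5.93%). Without ND 1, 12 of the 15 were lower and the median was -0.17, and without HFD 5 these were 12 and -0.16. Of these, mt-Nd1 stood at -0.41 ± 0.22 and the ribosomal RNA mt-Rnr2 at -0.38 ± 0.21.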

How the data were processed

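RNA was measured in 6 mouse lung endothelial cell libraries, 3 from HFD and 3 from ND mice, numbered separately by mouse in the labels. The authors deposited 1 table of 23345 genes whose values are a normalized count signal: gene reads over a library's size factor. The build was GRCm38, and the tools were HTSeq 0.6.1, DESeq2, TopHat2 2.0.10, Bowtie 1.0.0, cutadapt, SAMtools 0.1.19 and FastQC 0.11.7, per the submitters' processing notes. The sources used here do not give their settings, the gene annotation, strand or the treatment of reads with several matches. In each column 100% of values were whole multiples of 1 read within 1e-06, which gave back reads and depths. No molecular identifiers are mentioned, so reads are not separate molecules.

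Values were tested two-sided as log2(normalized count + 1) in R 4.3.3 by limma 3.58.1 with no covariates, a trend of variance on level, a minimum mean of 10 and Benjamini-Hochberg adjustment at 0.05. The added 1 draws in ratios of counts near 0. Still, several low genes had estimates farther from 0 on this scale than by DESeq2. These were Nop2 (4.01 and 3.19), Tbl3 (3.91 and 2.56), Myc (-2.11 and -1.21) and Snhg18 (-2.68 and -1.57). For Snhg14 the order was the other way (-1.26 and -1.31). Each library is labelled with a mouse number, and nothing more is said of how replicates were kept apart, so p values measure the spread between these libraries. Alternatives were pseudocounts of 0.5 and 5, minimum means of 1 and 50 and none, TMM scaling, equal column totals, edgeR 4.0.16 quasi-likelihood and DESeq2 1.42.0 on the recovered reads, members without Rps19bp1 and paralogs, and leaving out each library. The fits were tested on simulated data.

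Members, gene lists and tests were chosen with earlier results of these data known. Named members were those past the threshold, the 6 of smallest p in each direction without overlap, the 5 with the largest estimates in each direction, the 5 highest and lowest per kb, and genes named for their role, such as Rplp0, Rps6 and the paralogs. Of each list the 2 genes of smallest p were named, with a fixed set including Eef1a1, Myc and Gas5. Rpl6, Rpl7a, Rragb, Eif2s3x and the other members listed for lack of overlap or for copied windows were named after their values were seen. Positions are from GENCODE M21 and start windows from the RefSeq table of GRCm38.p6. Values of a few single genes are not reported here, and their points are left out of the plot of fold changes by gene name.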

Additional observations from a re-analysis of the deposited data

How the results depend on the processing

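No paired analysis was possible because the diets share only the number 4, which names different mice. The median log2 fold change of the members was -0.51 to -0.19 over the 6 fits without 1 library, -0.49 to -0.16 for the large and -0.52 to -0.25 for the small subunit, and 61 to 81 members were lower in HFD. With equal column totals the median of all genes was -0.064, against 0.050, and that of the members -0.50. Relative to all genes the members then stood at -0.44, against -0.43. The members without overlap in either direction then numbered 48 against 24, and 24 to 50 without 1 library. Among all genes, 7.65% lay below and 6.47% above with equal column totals, against 5.93% and 8.12%. Without 1 library, 9.81% to 11.8% of all genes lay below. DESeq2 called 276 genes, against 0 in limma, among them Nop2 (3.19). Of the genes named by rule, 12 changed sign in some setting, most with an estimate near 0, but Rpl7 (-0.26) and Rpl22l1 (-0.26) not. Genes named after their values were seen are not in this count. Of these, Rpl6 and Rpl7a were above 0 in limma (0.021 and 0.015) and below 0 by DESeq2 (-0.073 and -0.14). Over all members, 61 were lower without ND 1 against 76. Eif4ebp1 was -0.090 with equal totals, -0.034 by edgeR and -0.056 by DESeq2, and Gas5 was 0.00050 with TMM. Without 1 library the estimates ranged from -0.22 to 0.044 for Eef1a1, -0.11 to 0.23 for Eif4ebp1, -0.13 to 0.10 for Gas5, -0.27 to 0.13 for Rack1, -0.23 to 0.16 for Rpl13a, -0.56 to 0.020 for Rpl22l1, -0.26 to 0.11 for Rpl36a, -0.52 to 0.068 for Rpl7, -0.069 to 0.35 for Rplp0, -0.021 to 0.34 for Rps3, -0.093 to 0.34 for Rps4l and -0.13 to 0.16 for Rps6. Leaving out ND 1 turned the sign of Eef1a1, Gas5, Rack1, Rpl13a, Rpl22l1, Rpl36a, Rpl7 and Rps6, leaving out ND 4 that of Eif4ebp1, Rplp0, Rps3 and Rps4l, leaving out HFD 5 that of Gas5, Rpl13a, Rpl36a and Rps6, and leaving out HFD 2 or ND 3 that of Eif4ebp1 and Rack1. The cause was not tested. Depth was lower in every ND library, and 3 mice a diet limit the precision of every value.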
